A study of Mus musculus with 4 samples.

Results

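A set of 7 fibroblast growth factor (FGF) ligands was followed through 4 mouse cell populations on the way from mesoderm to cardiomyocytes. They were Fgf3, Fgf4, Fgf15, Fgf5, Fgf8, Fgf17 and Fgf10, found by their RefSeq identifiers NM_008007, NM_010202, NM_008003, NM_010203, NM_010205, NM_008004 and NM_008002. They had been chosen with earlier results of these data known. All 7 were on the array, with 9 probes of 39428 in all and 18 spots per array, 10 of them for the single Fgf10 probe and 3 of them for the 3 Fgf8 probes. The array covered 20885 gene symbols.

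Gene expression had been measured in order to compare a CsAYTE-induced cardioblast with the cells before and after it. Flk1+ MPCs were mesodermal precursor cells sorted at day 4.5 by the surface receptor Flk1, from mouse pluripotent stem cells grown on gelatin without leukemia inhibitory factor. PCBs were PDGFRα+ Flk1- cardioblasts at day 5.5, formed from Flk1+ MPCs under CsAYTE, and sfPCBs were the corresponding cells at day 5.5 that had formed spontaneously without it. M+CMs were αMHC+ cardiomyocytes at day 10.5, which the study describes as progeny of PCBs, although their label does not state whether CsAYTE was used.

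CsAYTE combines Cyclosporin A with Y27632, an inhibitor of the kinase ROCK, Trolox, an antioxidant, and EW7197, an inhibitor of the receptor kinase ALK5, and its control was the vehicle DMSO. After sorting, Flk1+ MPCs were differentiated further either with OP9 cells, a stromal line kept from dividing and used as a feeder, or without a feeder on gelatin. The labels do not state which surface was used for the arrays, although the study reports that feeder-free culture did not induce PCBs. The labels name embryonic stem cells as the cell type of every sample but not the line. The reporter line of the study, EMG7, carries GFP under the αMHC promoter, which is active in cardiomyocytes. Each population was measured on 1 array without replicates, so neither the spread between cultures nor a test between populations could be had.

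FGF ligands act outside the cell. Most bind receptor tyrosine kinases together with heparan sulphate on nearby cells and activate signalling inside the cell that switches on ETS factors and inhibitors of the pathway such as the Sprouty proteins. In the gastrulating mouse embryo Fgf8 and Fgf4 are made in the primitive streak, where Fgf8 is needed for mesoderm cells to move away from the streak. Fgf5 marks the epiblast, and Fgf8 and Fgf10 are known from the second heart field, the progenitor pool that extends the early heart tube.

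The proximal promoters of Fgf3, Fgf4 and Fgf5 are shown because these genes had the widest signal ranges among the 4 members whose promoter was matched in the RefSeq table, and that of Fgf10 because its range was narrower. Fgf8, Fgf15 and Fgf17 were the other members. Each window holds the 250 bases before the annotated start, 5′ to 3′ on the + strand of GRCm38.p6, at chr7:144838362-144838611 for Fgf3, chr7:144861136-144861385 for Fgf4, chr5:98253934-98254183 for Fgf5 and chr13:118714449-118714698 for Fgf10. Capitals mark matches, on either strand, to 7 motifs: the GC box GGGCGG, the CCAAT box CCAAT, the TATA box TATAAA, the ETS site CCGGAA, the T-box half-site GGTGTGA, the TCF/LEF site CTTTGA and the octamer ATGCAAAT.
Fgf3: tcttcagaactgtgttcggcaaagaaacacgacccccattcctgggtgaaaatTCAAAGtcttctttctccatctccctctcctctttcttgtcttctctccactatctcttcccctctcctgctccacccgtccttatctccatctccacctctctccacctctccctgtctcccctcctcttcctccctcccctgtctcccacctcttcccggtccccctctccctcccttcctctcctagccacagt
Fgf4: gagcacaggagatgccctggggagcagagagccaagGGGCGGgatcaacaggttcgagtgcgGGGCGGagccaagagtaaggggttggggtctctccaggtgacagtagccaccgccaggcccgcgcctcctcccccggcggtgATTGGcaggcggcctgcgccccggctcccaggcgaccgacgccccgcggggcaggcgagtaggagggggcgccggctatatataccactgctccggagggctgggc
Fgf5: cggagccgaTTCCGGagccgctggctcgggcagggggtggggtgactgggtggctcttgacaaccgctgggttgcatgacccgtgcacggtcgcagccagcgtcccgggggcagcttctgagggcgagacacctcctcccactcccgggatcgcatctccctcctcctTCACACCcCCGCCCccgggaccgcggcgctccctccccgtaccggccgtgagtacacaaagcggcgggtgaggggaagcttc
Fgf10: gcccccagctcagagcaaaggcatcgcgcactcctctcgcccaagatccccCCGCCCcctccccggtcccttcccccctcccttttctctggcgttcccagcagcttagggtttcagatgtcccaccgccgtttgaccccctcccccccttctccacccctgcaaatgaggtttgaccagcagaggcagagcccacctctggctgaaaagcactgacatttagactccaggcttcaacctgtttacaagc

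The Fgf4 and Fgf5 windows had GC contents of 71.2% and 70.8%, against 61.2% for Fgf10, 55.2% for Fgf3 and a median of 52.4% over all 32851 promoter windows of the table. The Fgf3 window held 1 TCF/LEF letter match, which occurred in 13.8% of all windows. The Fgf4 window held 2 GC boxes and 1 CCAAT box, motifs present in 32.7% and 33.8% of all windows. The Fgf5 window held a GC box, an ETS match (12% of all windows) and a T-box half-site match (3.33%), of which none overlapped another, and the Fgf10 window held a GC box. The exact letters TATAAA, found in 12.4% of all windows, and the octamer, found in 1.60%, were in none of these 4 windows. Near its end the Fgf4 window holds the related letters tatatata, which the search for TATAAA did not count. These are matches of letters only.

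All 4 arrays lay on 1 slide. The software called between 73.3% and 76.2% of the 43020 spots on each array well above background, and no spot was saturated. Signals below are background-subtracted spot intensities in the scanner's units after each array was scaled to a common 75th percentile. Those of a single gene are compared for 1 probe between arrays, not between probes. Sums over marker genes add several probes on this scale, so the brightest probes weigh most. On this scale 153 negative control spots per array had a median between 3.47 and 3.70, and the lowest signal called well above background was between 15.1 and 15.9. The error given with a log2 ratio is the software's own estimate for the spot and its background. It does not cover differences between cultures. Where the dimmer signal was not well above background, a ratio is given as a bound, with the dimmer side set to the higher of its own signal and the lowest detected signal of that array. A bound holds for this processing only. Settings that add an offset gave smaller ratios than the bounds of Fgf3, Fgf4 and Fgf15 against Flk1+ MPCs.

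The populations were checked by their markers. Kdr, which encodes Flk1, had signals of 54864 in Flk1+ MPCs and 4559 in sfPCBs, then 768 in PCBs and 2126 in M+CMs with 1 probe, whereas the probe with the higher mean log2 signal over the arrays gave 11263, 6661, 7272 and 7499, so the Kdr probes disagreed in size. Pdgfra, the receptor that names the cardioblasts, had 7237, 3647, 9136 and 918 in the same order. Myh6, the gene of αMHC, had 116, 128, 82857 and 478627. The 7 stromal markers, chosen because OP9 cells were a feeder, had a summed signal of 3006 in Flk1+ MPCs and 274594 in sfPCBs, then 141117 in PCBs and 22123 in M+CMs. Of these 7 markers, 4 were detected in Flk1+ MPCs, 7 each in sfPCBs and M+CMs, and 6 in PCBs. Lum, Dcn and Postn were not well above background in Flk1+ MPCs, nor was Postn in PCBs, whereas Thy1 was highest in Flk1+ MPCs. In a bulk population, fewer cells that express a ligand and less RNA of it per cell cannot be told apart.

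All 7 ligands had their highest signal in Flk1+ MPCs. The software detected 7 of them there, 5 in sfPCBs, 3 in PCBs and, at day 10.5, 4 in M+CMs. Fgf5, Fgf8 and Fgf10 were the 3 ligands detected on all arrays. A ligand counted as different where its scaled signals differed at least 4-fold and at least 1 of them was well above background. By this rule 6 ligands were lower and 0 higher in sfPCBs than in Flk1+ MPCs, where 3.36% of 30689 probes were lower and 6.7% higher. In PCBs 6 were lower and 0 higher, where 3.91% of 30811 probes were lower and 6.58% higher. In M+CMs 5 of 7 were lower than in Flk1+ MPCs and 0 higher, where 8.42% of 31539 probes were lower and 10.9% higher. These 3 comparisons share the Flk1+ MPC array. The ligands were chosen with earlier results of these data known, so their counts are no test against the shares of all probes. The median log2 ratio of the ligands was -3.35 for sfPCBs, -5.0 for PCBs and -4.81 for M+CMs, and that of all compared probes was -0.22, -0.20 and -0.01. The stromal marker sum was higher on all 3 later arrays than in Flk1+ MPCs, whereas the summed signal of 7 pluripotent and epiblast markers was 91402 in Flk1+ MPCs and 18345 in sfPCBs, then 12031 in PCBs and 3397 in M+CMs. Of these 7 markers, 7 were detected in Flk1+ MPCs and sfPCBs and 6 in PCBs and M+CMs. On each later array 5 of them were lower and 2 higher than in Flk1+ MPCs. By the 4-fold rule 2, 3 and 4 were lower in sfPCBs, PCBs and M+CMs, and 1, 0 and 1 higher. The part of stromal or epiblast cells in the lower ligand signals was not tested.

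**Figure D1:**
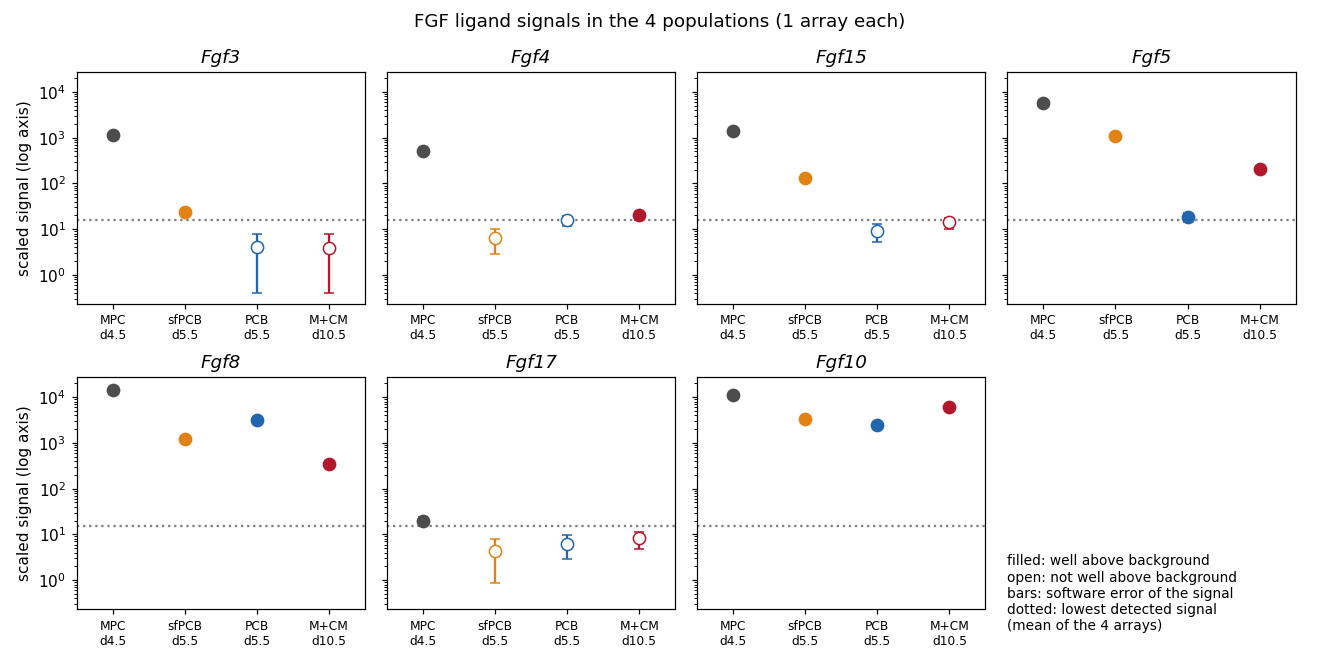
Scaled signal (log axis, scanner units) of each FGF ligand on the single array of each population, with the day of differentiation below each name. Bars are the software's error of the signal, open circles were not well above background, and the dotted line is the mean over the arrays of the lowest detected signal. Each ligand sits highest in Flk1+ MPCs, from 19.6 for Fgf17 to 14691 for Fgf8, and the order of the other 3 populations differs between ligands.

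Fgf3, Fgf4 and Fgf15 are neighbouring genes on chromosome 7. Fgf3 encodes a ligand known for its role in inner ear and tail development. Its signal was 1157 in Flk1+ MPCs and 23.6 in sfPCBs, then 4.0 in PCBs and 3.97 in M+CMs, the last 2 not well above background. It was thus high in Flk1+ MPCs, near the detection limit in sfPCBs and undetected in PCBs and M+CMs. The log2 ratio of sfPCBs to Flk1+ MPCs was -5.62 with an error of 0.32, a 49.1-fold lower signal. It was -3.95 with normexp background correction and scaling and -4.04 with an offset of 50. PCBs were at least 74.4-fold and M+CMs at least 75.1-fold below Flk1+ MPCs. With normexp background correction and scaling these log2 ratios were -4.01 and -4.06, smaller in size than the bounds. Between PCBs and sfPCBs the log2 ratio was -2.56 with an error of 1.47, a bound of at least 1.52-fold, which did not exceed 2 errors.

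Fgf4, which supports the early epiblast and is made in the primitive streak, had signals of 505 in Flk1+ MPCs and 6.45 in sfPCBs, then 15.8 in PCBs and 20.1 in M+CMs. It was clearly detected in Flk1+ MPCs and stood just above the detection limit in M+CMs, and it was not well above background in either cardioblast population. Compared with Flk1+ MPCs, the signal was at least 33.4-fold lower in sfPCBs, at least 32.0-fold lower in PCBs and 25.1-fold lower in M+CMs (log2 ratio -4.65, error 0.33). The M+CM ratio was -2.53 with normexp background correction and scaling and -2.98 with an offset of 50. The difference between M+CMs and PCBs was 0.35 on the log2 scale with an error of 0.47, smaller than its error.

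Fgf15, the mouse counterpart of human FGF19, acts as a hormone from the gut in the adult and is made in the embryonic nervous system and pharyngeal region. Its signal was 1375 in Flk1+ MPCs and 135 in sfPCBs, then 8.95 in PCBs and 14.1 in M+CMs, of which the last 2 were not well above background. The spontaneously formed cardioblasts therefore held a detected intermediate signal that PCBs did not. It was 10.2-fold lower in sfPCBs than in Flk1+ MPCs (log2 ratio -3.35, error 0.21), with bounds of at least 88.4-fold for PCBs and 89.3-fold for M+CMs. PCBs were at least 8.65-fold below sfPCBs, with a log2 ratio of -3.91 and an error of 0.62. This difference came under 4-fold with normexp background correction (-1.12, or -1.08 with quantile normalization) and with an offset of 50 (-1.65).

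The genes beside this cluster gave a local comparison. Among the 3 measured protein-coding genes on either side, Ppfia1, Fadd, LTO1 and Tpcn2 had log2 ratios between -0.77 and 0.78 to Flk1+ MPCs on the 3 later arrays. Ano1, a chloride channel gene next to Fgf3, had signals of 433 in Flk1+ MPCs and 883 in sfPCBs, then 79.6 in PCBs and 89.0 in M+CMs. It was 2.04-fold higher in sfPCBs, where Fgf3 was lower, and its log2 ratio to Flk1+ MPCs was -2.44 in PCBs and -2.28 in M+CMs. Ccnd1, which encodes cyclin D1, had signals of 15128, 16714, 9377 and 439, so it was lowest in M+CMs, with log2 ratios to Flk1+ MPCs of -5.11 there and -0.69 in PCBs.

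**Figure D2:**
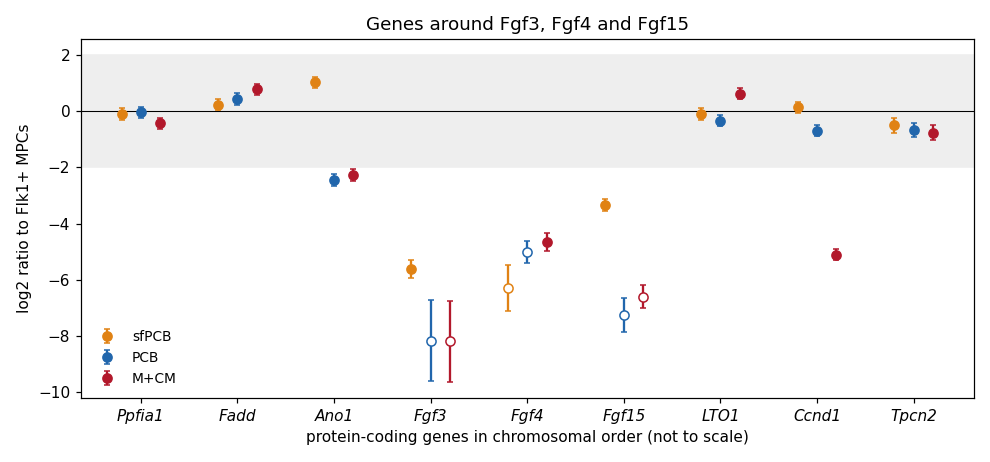
Log2 ratios to Flk1+ MPCs of Fgf3, Fgf4, Fgf15 and the 3 protein-coding genes on either side, in chromosomal order and not to scale, for sfPCBs, PCBs and M+CMs (1 array each, bars: 1 software error). Open circles were not well above background, and the grey band marks less than 4-fold. The 3 ligands lie below the band in every later population, where open circles give no firm size, as do Ano1 in PCBs and M+CMs and Ccnd1 in M+CMs, whereas Ppfia1, Fadd, LTO1 and Tpcn2 stay inside the band.

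Fgf5, a marker of the epiblast and later a regulator of the hair cycle, was detected on all 4 arrays. Its signal was 5711 in Flk1+ MPCs and 1064 in sfPCBs, then 18.4 in PCBs and 203 in M+CMs. PCBs stood lowest, close to the detection limit, and all neighbours in this order differed by more than 2 errors. It was 5.37-fold lower in sfPCBs than in Flk1+ MPCs and 310.7-fold lower in PCBs, with a log2 ratio of -8.28 and an error of 0.33. Of 30811 probes compared between PCBs and Flk1+ MPCs, 17 were as far down or further, itself included. The log2 ratio of -8.28 rests on a PCB signal near the detection limit. It was -6.13 with normexp background correction (-5.96 with quantile normalization) and -6.40 with an offset of 50. In M+CMs the signal was 28.1-fold below Flk1+ MPCs, with a log2 ratio of -4.81.

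Fgf5 also separated the cardioblasts. PCBs were 57.9-fold below sfPCBs, with an error of 0.33 on the log2 scale, and 40 of 30117 probes were as far down or further. This log2 ratio of -5.85 was -3.94 with normexp background correction (-3.86 with quantile normalization) and -4.03 with an offset of 50. M+CMs were 11.1-fold above PCBs, with a log2 ratio of 3.47 and an error of 0.33, which came under 4-fold with normexp background correction (1.74, or 1.56 with quantile normalization) and with an offset of 50 (1.89). In this list Fgf5 was the single ligand higher in M+CMs than in PCBs by the 4-fold rule, where 7.27% of 31131 probes were higher.

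Fgf8, the streak and second heart field ligand, had signals of 14691 in Flk1+ MPCs and 1206 in sfPCBs, then 3189 in PCBs and 343 in M+CMs with its brightest probe. Here PCBs, not sfPCBs, stood closest to Flk1+ MPCs. The signal was 12.2-fold lower in sfPCBs than in Flk1+ MPCs (log2 ratio -3.61, error 0.20), 4.61-fold lower in PCBs (-2.20, error 0.20) and 42.8-fold lower in M+CMs (-5.42, error 0.20). PCBs were 2.64-fold above sfPCBs, with a log2 ratio of 1.40 and an error of 0.20. The difference of PCBs from Flk1+ MPCs came just under 4-fold with normexp background correction and quantile normalization. M+CMs were 9.30-fold below PCBs, where 6.73% of all compared probes were lower by the 4-fold rule.

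A second Fgf8 probe gave 4414, 344, 886 and 77.1 in the same order of populations, with log2 ratios to Flk1+ MPCs of -3.68 for sfPCBs, -2.32 for PCBs and -5.84 for M+CMs. Its PCB signal was 2.57-fold above the sfPCB signal. The third probe was dim, with 81.4 in Flk1+ MPCs and 21.8 in PCBs, and with 7.54 in sfPCBs and 12.6 in M+CMs, which were not well above background. All 3 probes had Flk1+ MPCs highest and PCBs next.

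Fgf17, a close relative of Fgf8 that acts with it in the midbrain, had signals of 19.6 in Flk1+ MPCs and 4.31 in sfPCBs, then 6.21 in PCBs and 8.20 in M+CMs. Only the first was well above background, and by little. The bounds were at least 1.30-fold, 1.26-fold and 1.28-fold lower in sfPCBs, PCBs and M+CMs. Its log2 ratio of -2.19 in sfPCBs, with an error of 1.19, passed the 4-fold rule but not 2 errors, so Fgf17 was the least certain of the 6 ligands counted there. It came under 4-fold without scaling and with the series matrix values (-1.85 each), with normexp background correction (-0.40, or -0.15 with quantile normalization) and with an offset of 50 (-0.36).

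Fgf10, which signals to epithelia through the Fgfr2b receptor form and marks second heart field progenitors, was bright on every array. Its mean over 10 spots was 11124 in Flk1+ MPCs and 3283 in sfPCBs, then 2502 in PCBs and 6251 in M+CMs. It was lowest in the cardioblasts and higher in M+CMs, unlike Fgf8. The 10 spots ranged from 10506 to 11508, from 2913 to 3490, from 2371 to 2606 and from 5996 to 6501, so the spots of different arrays did not overlap. These spots repeat 1 hybridization and are not replicates of a population. Fgf10 was 3.39-fold lower in sfPCBs than in Flk1+ MPCs (log2 ratio -1.76, error 0.20), short of the 4-fold rule, and 4.45-fold lower in PCBs (-2.15, error 0.20). The log2 ratio of PCBs to sfPCBs was -0.39 with an error of 0.20 and did not exceed 2 errors. M+CMs were 2.50-fold above PCBs and 1.78-fold below Flk1+ MPCs. Without scaling between arrays, as with the unscaled series matrix values, the PCB ratio to Flk1+ MPCs was -1.97, which is under 4-fold.

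**Figure D3:**
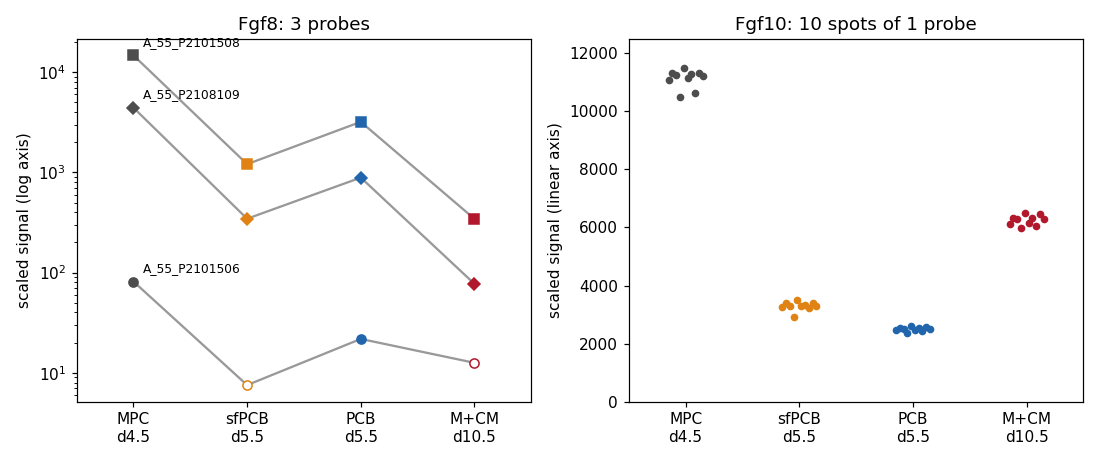
Left, scaled signal (log axis) of the 3 Fgf8 probes in the 4 populations, with open symbols where a signal was not well above background. Right, scaled signal (linear axis from 0) of the 10 spots of the Fgf10 probe on each array. The Fgf8 probes share the highest signal in Flk1+ MPCs and a higher signal in PCBs than in sfPCBs, and the Fgf10 spots form separate groups on each array, lowest in PCBs between 2371 and 2606.

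The comparison of PCBs with sfPCBs asked how CsAYTE-induced cardioblasts differ from those that formed without it. Fgf3, Fgf15 and Fgf5 were lower in PCBs by the 4-fold rule and 0 were higher, of 5 ligands detected in either, where 2.47% of 30117 probes were lower and 2.13% higher. Of these, Fgf15 and Fgf5 differed by more than 2 errors, and Fgf8 differed in the other direction. The median log2 ratio of the 5 was -2.56, or -0.60 with undetected signals set to their bounds, against 0.03 for all probes. The stromal marker sum was 274594 in sfPCBs and 141117 in PCBs, and the endothelial marker sum over 5 genes 3146 and 237. Cardioblasts are defined here as PDGFRα+ Flk1-. The part of stromal or endothelial cells in these differences was not tested. From PCBs to M+CMs, 4 ligands were compared, of which Fgf5 was higher, Fgf8 lower and Fgf4 and Fgf10 within 4-fold.

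**Figure D4:**
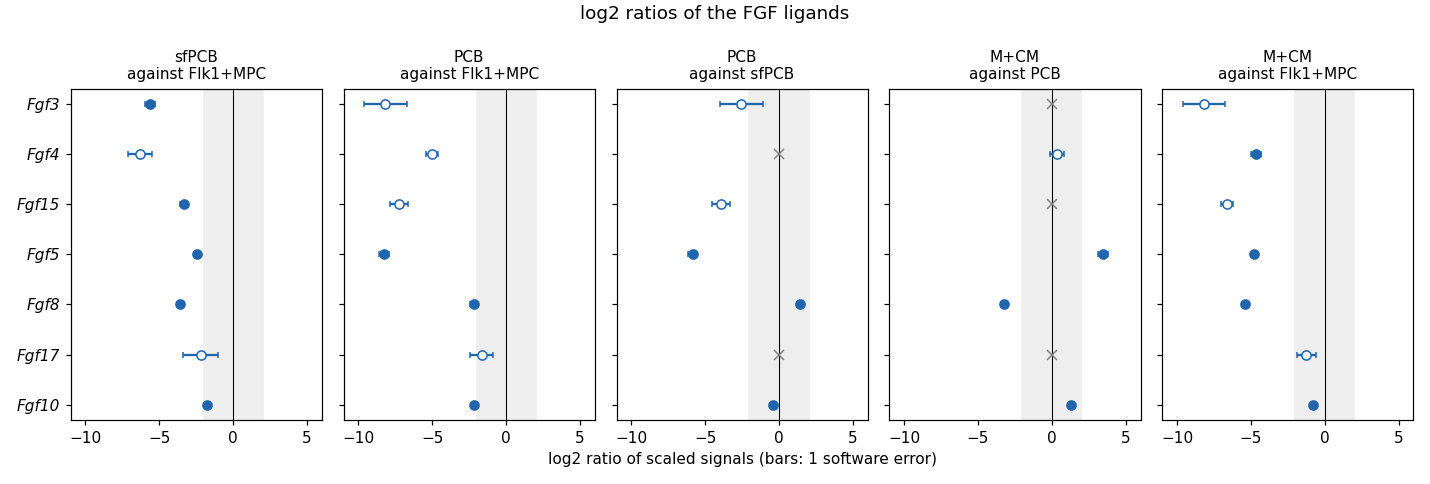
Log2 ratios of scaled signals of the 7 ligands in the 5 comparisons between populations, with bars of 1 software error. Open circles have a dimmer signal that was not well above background, crosses placed at 0 mark ligands detected in neither array and carry no ratio, and the grey band marks less than 4-fold. Against Flk1+ MPCs all circles lie left of 0, while Fgf5 moves from -8.28 in PCBs to -4.81 in M+CMs and Fgf8 from -2.20 to -5.42.

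The other genes of the FGF family were described by the same rule. The list held 15 genes, of which Fgf11, Fgf12, Fgf13 and Fgf14 encode relatives that stay inside the cell and are not secreted ligands. Detected in either array were 12 of them for sfPCBs against Flk1+ MPCs, 11 for PCBs and 12 for M+CMs. Of these, 2 were higher and 1 lower in sfPCBs than in Flk1+ MPCs, 3 were higher and 1 lower in PCBs, and 4 were higher and 0 lower in M+CMs. Over all compared probes, 6.7%, 6.58% and 10.9% were higher and 3.36%, 3.91% and 8.42% lower in the same order. The same shares apply to the lists below. Fgf7, a mesenchymal ligand of the same receptor form as Fgf10, had signals of 111 in Flk1+ MPCs and 3676 in sfPCBs, then 2965 in PCBs and 136 in M+CMs. Relative to Flk1+ MPCs it was 33.0-fold higher in sfPCBs and 26.6-fold higher in PCBs, the arrays where the stromal marker sum was also highest, and the part of feeder RNA was not tested.

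Fgf6, a ligand of skeletal muscle, had signals of 22.4, 11.4, 1374 and 180 in the order Flk1+ MPCs, sfPCBs, PCBs and M+CMs, the sfPCB signal not being well above background. The PCB signal was 61.2-fold above that of Flk1+ MPCs and at least 90.8-fold above that of sfPCBs. Fgf1, which lacks a secretion signal, had 64.5, 97.6, 25.1 and 5286, so it was brightest in M+CMs, 82.0-fold above Flk1+ MPCs. A dimmer Fgf1 probe was well above background in M+CMs alone, at 70.7. Fgf21, a metabolic hormone, was detected in sfPCBs at 206 and in PCBs at 21.9 and was not well above background in Flk1+ MPCs or M+CMs. It was 9.39-fold lower in PCBs than in sfPCBs.

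The receptors were detected more evenly. Of 7 receptor and coreceptor genes, 1 was higher and 0 lower in each of the comparisons with Flk1+ MPCs. Over all compared probes, 6.7%, 6.58% and 10.9% were higher and 3.36%, 3.91% and 8.42% lower in sfPCBs, PCBs and M+CMs. The higher gene in sfPCBs and PCBs was Fgfr3. Its signals were 994 in Flk1+ MPCs and 5819 in sfPCBs, then 5571 in PCBs and 1077 in M+CMs. A dimmer Fgfr3 probe gave 98.2, 261, 238 and 95.9, likewise higher in both cardioblast populations, with differences under 4-fold. In M+CMs it was Kl, the Klotho coreceptor of hormonal FGFs, which was 13.3-fold higher at 227 than in Flk1+ MPCs at 17.0 and was not well above background in the cardioblasts.

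Genes known to respond to FGF signalling moved unevenly. Of 14, 3 were lower and 0 higher in sfPCBs than in Flk1+ MPCs, 4 were lower and 1 higher in PCBs, and 6 were lower and 2 higher in M+CMs. Their median log2 ratios were -1.12, -0.91 and -1.01. Over all compared probes, 3.36%, 3.91% and 8.42% were lower and 6.7%, 6.58% and 10.9% higher in the same order. Spry4, an inhibitor of the pathway, had signals of 1556 in Flk1+ MPCs and 82.8 in sfPCBs, then 54.6 in PCBs and 77.8 in M+CMs, and was 18.8-fold, 28.5-fold and 20.0-fold lower on the later arrays. Etv4, an ETS factor, had 13604, 2488, 772 and 366. Its log2 ratio was -2.45 for sfPCBs, -4.14 for PCBs and -5.21 for M+CMs.

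Il17rd, which encodes the FGF inhibitor Sef, had signals of 26312, 6351, 3046 and 148 in the order Flk1+ MPCs, sfPCBs, PCBs and M+CMs, and Etv5, another ETS factor, had 31544, 8371, 5065 and 4313. Both were highest in Flk1+ MPCs, and Etv5 was below the 4-fold rule in sfPCBs with a log2 ratio of -1.91. Egr1 and Fos, immediate early genes named here after their values were seen, went the other way, with log2 ratios of 2.14 and 2.52 in M+CMs. Of these 14 genes 0 were called in either direction between PCBs and sfPCBs, where 2.47% of 30117 probes were lower and 2.13% higher. A count of 0 of 14 is near these shares.

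Heparan sulphate genes, whose products hold FGFs at the cell surface, showed no common direction. Of 20, 3 were higher and 1 lower in sfPCBs, 1 higher and 3 lower in PCBs, and 1 higher and 1 lower in M+CMs, each against Flk1+ MPCs. Over all compared probes, 6.7%, 6.58% and 10.9% were higher and 3.36%, 3.91% and 8.42% lower in the same order. Gpc4, a glypican, had signals of 406 in Flk1+ MPCs and 99.8 in sfPCBs, then 27.0 in PCBs and 765 in M+CMs, lowest in PCBs like Fgf5. The syndecan Sdc3 had 446, 3666, 2947 and 294, the syndecan Sdc1 2274, 4887, 2831 and 117, and the syndecan Sdc4 2052, 1080 and 776 before 7272 in M+CMs.

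The genes of the primitive streak and early mesoderm were lower after Flk1+ MPCs, as the ligands were. Of 14 genes, 13 were compared, and 11 were lower in sfPCBs and 12 each in PCBs and M+CMs, with 0 higher. Over all compared probes, 3.36%, 3.91% and 8.42% were lower and 6.7%, 6.58% and 10.9% higher in sfPCBs, PCBs and M+CMs. The median log2 ratio of the 13 genes was -4.64 in sfPCBs and -10.04 in PCBs, the latter -8.28 with undetected signals set to their bounds. Mesp1, a factor of the earliest cardiac mesoderm, had 42204 in Flk1+ MPCs and 179 in sfPCBs, then 3.34 in PCBs and 10.2 in M+CMs, and was 236.4-fold lower in sfPCBs and at least 2714-fold lower in PCBs. Evx1 was at least 2881-fold, Gsc at least 1241-fold and Wnt3 at least 578-fold lower in PCBs than in Flk1+ MPCs. Between PCBs and sfPCBs 8 of the 13 were lower and 0 higher, where 2.47% of 30117 probes were lower and 2.13% higher.

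Of 13 genes listed for the second heart field, 7 were higher and 1 lower in PCBs than in Flk1+ MPCs. In sfPCBs 3 were higher and 1 lower, and in M+CMs 5 were higher and 3 lower. Over all compared probes, 6.58%, 6.7% and 10.9% were higher and 3.91%, 3.36% and 8.42% lower in the same order. Between M+CMs and PCBs 2 of the 13 were higher and 4 lower, where 7.27% and 6.73% of probes were. The list is not particular to that field, since it holds Nkx2-5 and Tbx5, which the study counts among cardiac transcription factors. Nkx2-5, a cardiac homeobox factor, had signals of 657 in Flk1+ MPCs and 591 in sfPCBs, then 9016 in PCBs and 47780 in M+CMs. Mef2c had 19.8, 201, 1616 and 729, and Tbx5 had 687, 397, 2759 and 30265. Foxh1, a partner of Smad proteins, was lower in sfPCBs than in Flk1+ MPCs (4.41-fold) and lowest in M+CMs, where it was 168.9-fold down. Fgf8 and Fgf10, the ligands known from this field, were lower in PCBs than in Flk1+ MPCs, as given above.

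**Figure D5:**
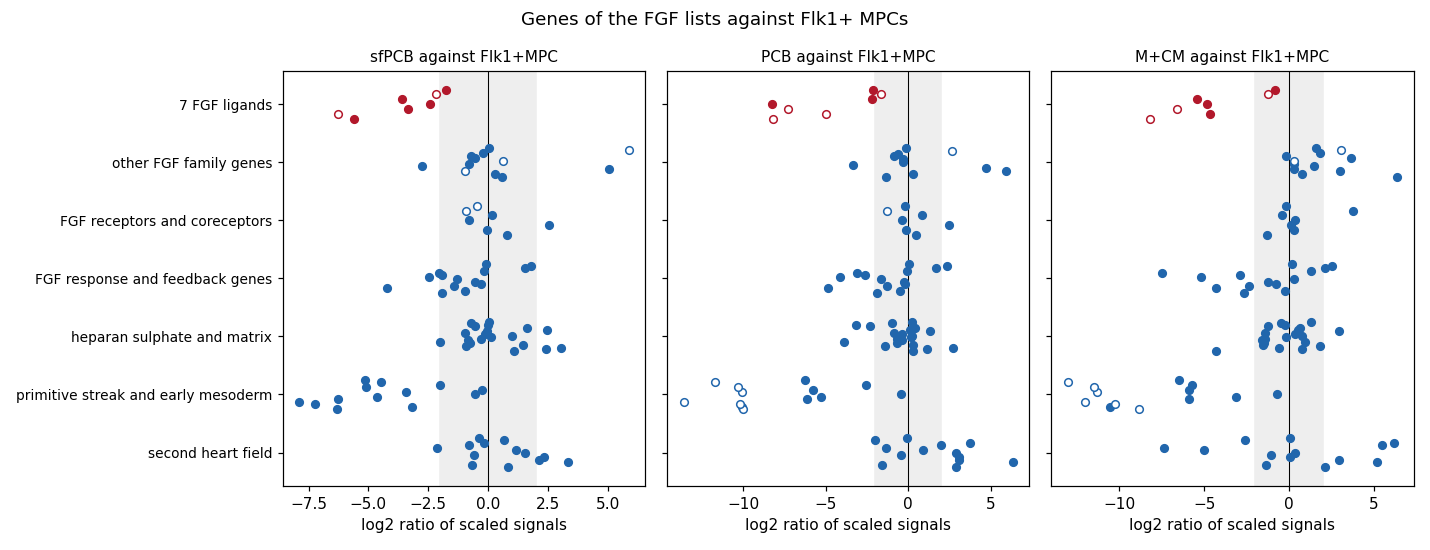
Log2 ratios of scaled signals to Flk1+ MPCs in sfPCBs, PCBs and M+CMs, 1 point per gene detected in either array, for the 7 ligands (red) and 6 lists of related genes (blue). Open circles have a dimmer signal that was not well above background, and the grey band marks less than 4-fold. The 7 ligands and the primitive streak genes lie mostly left of the band.

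Among the ligands themselves, profiles over the 4 arrays were compared by the root mean square difference of log2 signals after each was centred on its mean. The closest pair was Fgf17 and Fgf10 at 0.38, although Fgf17 was undetected on 3 arrays, followed by Fgf3 and Fgf15 at 0.84 and Fgf15 and Fgf5 at 1.05. Fgf5 and Fgf8 were the furthest apart, at 2.92. Over other genes, the profiles nearest to Fgf3 were those of Optc (0.26) and Zic5 (0.38), to Fgf4 those of Dgkg (0.38) and Prkcb (0.45), and to Fgf15 those of Cxcr4 (0.25) and Lhx5 (0.38). Fgf3 and Fgf15 were undetected in PCBs and M+CMs and Fgf4 in both cardioblast populations, so their distances rest partly on signals at background. Car2 (0.85) and Cthrc1 (0.89) were nearest to Fgf5, and Ripk4 (0.54) and Crabp1 (0.59) to Fgf8. Stk26 (0.075) and Socs2 (0.10) were nearest to Fgf10, and Pbx3 (0.078) and Pitpnc1 (0.092) to Fgf17. With 4 arrays and between 18897 and 22499 probes searched for each ligand, near profiles are found easily, and these are descriptions only.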

How the data were processed

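RNA of Flk1+ MPCs, sfPCBs, PCBs and M+CMs was hybridized to 1-colour Agilent arrays, 1 per population, grouped by the sample labels. The files the authors deposited hold intensities written by Feature Extraction 11.5.1.1, background-subtracted by that software (processed signal), with an error and flags per spot, not normalized between arrays. The file headers annotate the design on mm9. The deposited series matrix held log2 values equal, within 0.001, to the log2 processed signal for at least 99.06% of probes, so it carried no scaling or centring, and the medians of its columns were 6.88, 7.40, 7.19 and 7.16 in the order Flk1+ MPCs, sfPCBs, PCBs and M+CMs.

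From these, control spots and spots flagged as outliers or by hand were removed (87 to 144 per array). The 75th percentile of every array was brought to 2198, their mean before scaling, and repeated spots were averaged on the log2 scale without an offset. A probe was detected where at least 0.5 of its spots were well above background. The brightest probe stood for a gene. Symbols came from RefSeq's table for GRCm38.p6, through which 27507 of 39428 probes had 1 symbol, and the promoter windows came from RefSeq for the same build. Errors of log2 ratios were propagated from the error column. The number of arrays limits the precision, and no p-value was computed.

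Named were all 7 ligands, the 2 genes nearest to each in profile among curated RefSeq probes detected on at least as many arrays, up to 4 genes per list with the widest range among those differing 4-fold in any comparison, and Kdr, Pdgfra and Myh6. The members and lists were chosen with earlier results of these data known, and the motifs and chromosomal neighbours after the values were seen. A further gene list is not reported here. Besides those given, the marker lists for endoderm, neural, blood, mesodermal precursor (Kdr, Pdgfra and Mesp1) and cardiomyocyte cells had summed signals of 1283, 290, 880, 60704 and 6939 in Flk1+ MPCs, 822, 1440, 3877, 10486 and 4874 in sfPCBs, 469, 856, 3128, 16412 and 587689 in PCBs, and 66.6, 1713, 206, 8427 and 1644493 in M+CMs.

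The alternatives were quantile normalization, no scaling, a percentile over probes detected on all arrays, normexp with an offset of 50 on the median spot and local background intensities (in place of the mean spot intensities planned, which were not used here), an offset of 50 on the scaled signals, detection in both arrays, the mean of a gene's probes, the series matrix, a 2-fold rule and a 4-fold rule after 2 errors. The scaling and the 4-fold rule were tested on simulated data, with planted changes above 4-fold in detected probes only. Undetected signals and bounds were not tested in this way. Python 3.11.15 (numpy 2.4.6, pandas 2.3.3, matplotlib 3.10.9) did the main steps, and limma 3.58.1 under R 4.3.3 the quantile and normexp steps.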

Additional observations from a re-analysis of the deposited data

How the results depend on the processing

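Of 258 alternative values of the ligands' log2 ratios, 180 stayed within their error, 76 moved toward 0, 2 moved away from 0 and 0 changed sign. Some of the 180 could not move. Requiring detection in both arrays left each ratio as it was, as did the mean of a gene's probes for ligands with 1 probe. The series matrix nearly repeated the setting without scaling. Most that moved came from normexp with quantile normalization (23), normexp with scaling (21) and an offset of 50 (18), each of which adds an offset that shrinks ratios of dim signals. Of 55 alternative counts, 5 of them by a 2-fold rule, 46 stayed within 1.5 times. With detection required in both arrays, 3 ligands were lower in PCBs than in Flk1+ MPCs, 3 in M+CMs than in Flk1+ MPCs and 1 in PCBs than in sfPCBs, since undetected signals no longer counted. With either normexp setting or the offset of 50, 1 ligand differed between PCBs and sfPCBs and 1 between M+CMs and PCBs. Fgf10 in PCBs against Flk1+ MPCs came under 4-fold without scaling and with the series matrix (-1.97), with quantile normalization (-1.99) and with normexp and quantile normalization (-1.95), where Fgf8 also came just under it. Without scaling, the median log2 ratio of all probes in sfPCBs against Flk1+ MPCs moved from -0.22 to 0.11. No paired analysis was possible because each population had 1 array, and for the same reason no replicate could be left out. Signals under about 15 were not separable from background.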
